A study of Mus musculus with 15 samples.

Results

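Mitochondrial ribosomal protein genes were taken as the protein-coding mouse genes whose symbol begins with Mrpl or Mrps and a number. They came to 78 of the 53700 genes counted in each library: 51 encode proteins of the large subunit, 26 encode proteins of the small subunit, and Mrps36 was placed in neither. Mrps18a and Mrps30 carry an S in their names, but their proteins sit in the large subunit, and they were counted there. The product of Mrps36 is now described as part of the α-ketoglutarate dehydrogenase complex. Reads were counted in mouse germinal vesicle (GV) oocytes, fully grown cells before meiosis resumes, with polyadenylated RNA from 15 oocytes in each library. The Padi6 groups were on the FVB/N strain background and held 3 Padi6 heterozygote (+/-, het) and 3 Padi6 knockout (KO) replicates. The Tle6 groups were on the C57BL/6J background and held 2 Tle6 heterozygote and 4 Tle6 knockout biological replicates. PADI6 and TLE6 are proteins of the subcortical maternal complex and the cytoplasmic lattices of the oocyte. Every control replicate carried 1 mutant allele of the gene its line targets, and no oocytes with both alleles intact were compared. The labels give neither the age of the animals nor which animals gave which oocytes, so the p-values rest on the spread between these samples alone, which may be technical.

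The mitochondrial ribosome translates the mRNAs of the mitochondrial genome, all of which encode subunits of the respiratory chain and the ATP synthase. Its RNAs are transcribed from mitochondrial DNA, while its proteins are encoded in the nucleus, made in the cytosol and imported. The small subunit reads the mRNA and the large subunit joins the amino acids; many of the proteins have bacterial relatives, and the others are specific to mitochondria. A fully grown oocyte is close to silent in transcription, and its mRNA is largely a maternal store that also serves the early embryo, together with its large stock of maternally inherited mitochondria.

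Gene counts ranged from 30100177 to 74947533 per library. Padi6 was at 18.75 to 24.82 CPM (counts-per-million, scaled by the TMM method) in Padi6 KO and at 1594 to 1746 in Padi6 het. Tle6 was at 61.07 to 97.05 CPM in Tle6 KO and at 429.4 to 457.1 in Tle6 het, below the 1038 to 1325 of the Padi6 line. The 10 oocyte markers summed to 16600 to 18300 CPM as group means, and 10 granulosa and cumulus cell markers to 96.3 to 107. Tle6 het replicates 1 and 2 and Tle6 KO replicate 4 each had technical libraries A and B, which were added together. In Tle6 het replicate 2 those 2 libraries differed from each other. For 27 of the 76 members that passed the filter on low counts (35.5%), A and B lay more than 2-fold apart, against 20.8% of all 21392 genes tested. Of these, 21 were higher in A and 6 in B, and the median log2 difference of A minus B was 0.51 over the members and 0.05 over all genes. No member lay more than 2-fold apart in the other replicates with technical libraries. Calls that rest on Tle6 het replicate 2 were repeated with library A alone and with library B alone in its place.

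**Figure D1:**
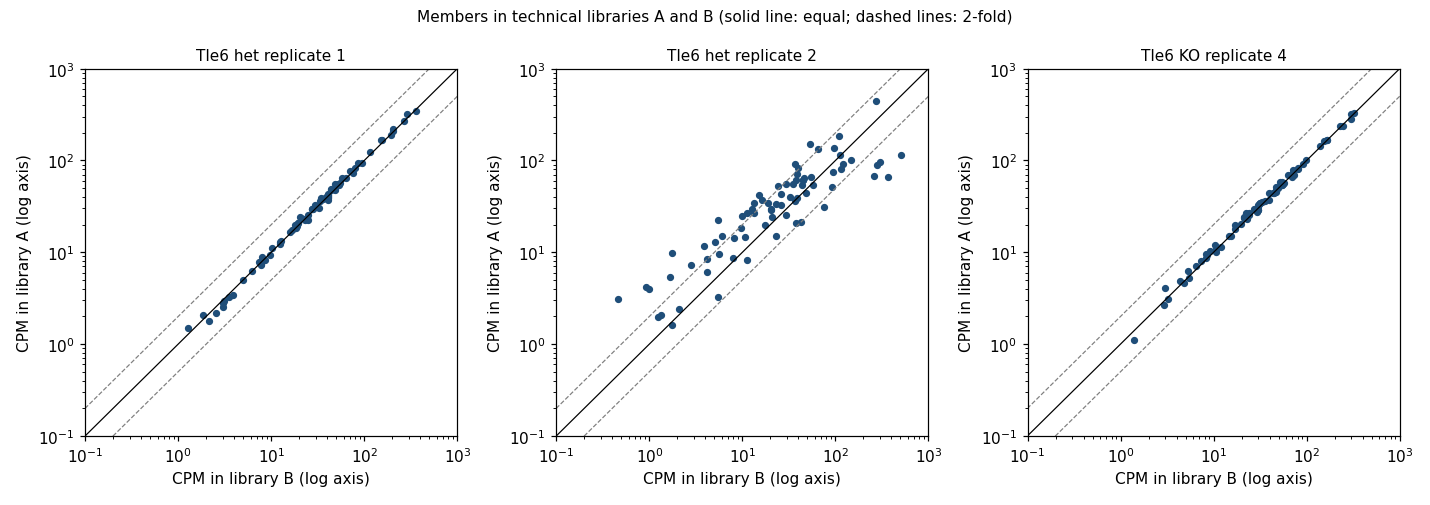
CPM of each of the 76 tested members in technical library A (vertical, log axis) against library B (horizontal, log axis) of the same biological replicate, 1 panel per replicate. Points lie near the line of equality in Tle6 het replicate 1 and Tle6 KO replicate 4, while in Tle6 het replicate 2 the 27 members outside the dashed 2-fold lines lie mostly on the side of library A.

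Levels of different members were compared in TPM (transcripts-per-million), a scale that divides counts by the summed exon length of the gene. The median member stood at 40.0 TPM over the 12 biological replicates, with quartiles of 17.2 and 84.1. Of the members, 14 averaged over 100 TPM, 53 lay from 10 to 100 and 11 lay under 10. The highest was Mrpl2, at 560 TPM, whose protein lies by the peptidyl transferase centre of the large subunit. Mrpl40 followed at 418 TPM, Mrpl14 at 369, Mrps23 at 319 and Mrpl22, whose protein lines the exit tunnel, at 163. The lowest members were Mrps10 at 1.04 TPM, Mrps34 at 0.0741 and Mrpl53, with 0 reads.

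Mrpl53 and Mrps34 were the 2 members that did not pass the filter on low counts in any comparison. Mrpl53 had 0 counts in every library, which allows up to 0.04 to 0.0997 CPM at 3 counts per library, counting error only. In the annotation 88.0% of its exon bases are shared with exons of other genes, and HTSeq sets reads in overlapping genes apart. Mrps34 had 28 counts in all, of which 19 were in Padi6 KO replicate 3 (0.404 CPM); 77.8% of its exon bases are shared with Mapk8ip3 and Nme3. Reads of 33 members could be affected in this way, 28 of them by a gene on the opposite strand, and the sources used here do not state the strand setting of the counting.

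**Figure D2:**
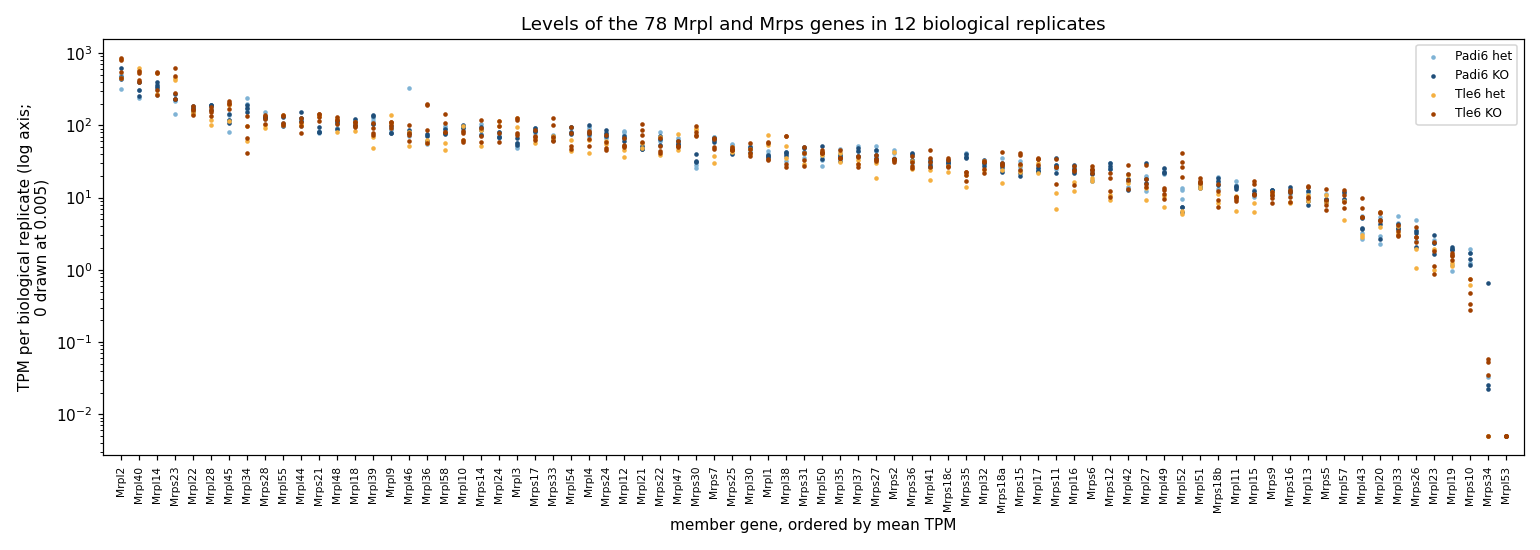
TPM (vertical, log axis) of the 78 members, ordered by mean level, with 1 dot per biological replicate coloured by group. Levels run from 560 TPM for Mrpl2 to 0 for Mrpl53, and the dots of the 4 groups lie close together for most members.

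The order of the members was much the same in the 4 groups. Across the 78 genes, Pearson's r of mean log levels was 0.99 between Padi6 het and Padi6 KO and 0.98 between Tle6 het and Tle6 KO. Between a group of one line and a group of the other it was 0.96 or 0.97; genes share their exon lengths in these correlations and are not independent replicates. The 3 Mrps18 paralogs, which encode different proteins of both subunits, lay near each other: Mrps18c averaged 29.4 TPM, Mrps18a 28.1 and Mrps18b 13.6. None of the 3 passed the test in any comparison.

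Added over all members, the summed level was 3330 ± 33.8 CPM in Padi6 het (SD, n = 3) and 3440 ± 32.9 in Padi6 KO (SD, n = 3). It was 4090 ± 40.3 CPM in Tle6 het (SD, n = 2) and 4020 ± 367 in Tle6 KO (SD, n = 4). These orders depended on the scaling: with total counts in place of TMM the values were 3550 CPM in Padi6 het, 3610 in Padi6 KO, 3530 in Tle6 het and 3970 in Tle6 KO. Tle6 het was then no longer above the Padi6 groups, Tle6 KO still was, and the order of Tle6 het and Tle6 KO turned. Members took 0.343 to 0.426% of the gene counts of a replicate. The median large-subunit member was above the median small-subunit member in all 12 replicates, by a ratio of TPM of 1.17 to 1.28 in the Padi6 line and 1.34 to 1.84 in the Tle6 line. Here and below, fewer mRNAs per oocyte and a larger total of other mRNAs cannot be told apart. Counts of ERCC spike-in RNAs were 40 in Padi6 het replicate 3, 4009 to 13772 in the other Padi6 libraries and 5 to 45 in the Tle6 libraries. They were not used for scaling.

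The start sites of the members carry letters known from promoters of mitochondrial genes. RefSeq promoters (GRCm38.p6, 250 bases before to 50 after the start) were found for 69 of the 78 members, 75 promoters in all. The ETS motif CCGGAAG, bound by factors such as GABPA, was in 34.7% of them on either strand, against 8.86% of all 32851 promoters. The NRF1 motif was in 17.3% against 4.6%, and the YY1 motif AAGATGGC in 16.0% against 2.75%. The SP1 motif GGGCGG was in 52.0% against 35.7%. Among promoters of protein-coding genes alone, the shares were 11.6% for ETS, 6.38% for NRF1, 3.05% for YY1 and 46.2% for SP1. Member promoters were also richer in G and C, with a median of 58.7%, against 52.7% of all promoters and 56.3% of those of protein-coding genes. Matches of different motifs overlapped in 2 member promoters, and 14 held none of the 4 motifs.

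The promoters below belong to the member that changed in the Tle6 KO (Mrpl52), the member with the smallest p between the het groups (Mrps30), and a pair that starts from one shared stretch in opposite directions (Mrps11 and Mrpl46). Capitals mark the matches of ETS in Mrpl52, of YY1 and SP1 in Mrps11, and of SP1 in Mrpl46; Mrps30 holds none of the 4. A match describes the letters and does not show that a factor binds. The window of Mrpl52 is chr14:54426659-54426958 (plus strand), that of Mrps30 chr13:118387203-118387502 (minus), that of Mrps11 chr7:78782881-78783180 (plus) and that of Mrpl46 chr7:78783040-78783339 (minus), all GRCm38.p6.
Mrpl52: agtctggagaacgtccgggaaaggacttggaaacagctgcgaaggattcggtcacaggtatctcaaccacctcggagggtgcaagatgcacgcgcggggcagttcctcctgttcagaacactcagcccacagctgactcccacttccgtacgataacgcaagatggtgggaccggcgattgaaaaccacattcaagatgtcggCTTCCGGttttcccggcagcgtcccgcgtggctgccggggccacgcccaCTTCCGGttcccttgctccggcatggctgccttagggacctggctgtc
Mrps30: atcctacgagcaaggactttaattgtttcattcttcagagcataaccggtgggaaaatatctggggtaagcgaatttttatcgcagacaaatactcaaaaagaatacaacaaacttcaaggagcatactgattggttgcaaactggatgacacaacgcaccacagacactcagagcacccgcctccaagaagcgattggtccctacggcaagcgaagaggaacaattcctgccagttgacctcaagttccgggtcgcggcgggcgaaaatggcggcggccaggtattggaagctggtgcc
Mrps11: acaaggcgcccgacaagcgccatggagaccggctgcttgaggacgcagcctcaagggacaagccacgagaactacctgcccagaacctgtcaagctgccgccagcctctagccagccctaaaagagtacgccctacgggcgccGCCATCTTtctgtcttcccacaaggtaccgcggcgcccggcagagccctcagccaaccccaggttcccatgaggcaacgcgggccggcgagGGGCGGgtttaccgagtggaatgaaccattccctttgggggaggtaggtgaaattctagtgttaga
Mrpl46: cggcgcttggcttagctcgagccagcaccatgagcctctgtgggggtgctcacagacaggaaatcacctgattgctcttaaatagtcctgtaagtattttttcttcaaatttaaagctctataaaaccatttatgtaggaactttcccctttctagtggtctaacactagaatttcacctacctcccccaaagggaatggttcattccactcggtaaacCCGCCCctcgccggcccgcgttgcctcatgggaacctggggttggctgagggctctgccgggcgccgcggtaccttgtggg

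In oocytes without PADI6, no member passed the test against Padi6 het. With edgeR's quasi-likelihood test and Benjamini-Hochberg adjustment over all genes, 0 of 76 members were called, against 2.41% of all 18228 genes tested (440). At an unadjusted p under 0.05 there were 8 members, against 18.6% of all genes. DESeq2 called 1, Mrpl52, against 7.25% of all genes. The median log2 fold change of the members was 0.03, against -0.01 over all genes, and 42 of 76 were positive (55.3%, against 49.2% of all genes). For 73 of 76 members (96.1%) the log2 fold change was within 0.5 of 0, against 78.5% of all genes. The median SE was 0.13 over the members and 0.21 over all genes, and a smaller SE by itself keeps more values near 0. Replicates of the 2 groups did not overlap for 7 members that were higher and 3 that were lower in KO, 9.21 and 3.95% of the members, against 11.7 and 11.5% of all genes.

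The 5 members with the smallest p in the Padi6 line did not pass. Mrpl52, a mitochondria-specific protein of the large subunit, had the smallest. It stood at 4.41, 2.91 and 4.17 CPM in the 3 het replicates and at 2.06, 2.45 and 2.41 CPM in the 3 KO replicates. Every KO replicate was below every het replicate, and the log2 fold change was -0.73 ± 0.22 (SE; edgeR, adjusted p = 0.117).

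Mrps31 and Mrps6, both of the small subunit, were at higher values in KO. Mrps31 was at 39.2, 36.4 and 33.5 CPM in het and at 46.5, 48.1 and 42.3 CPM in KO (log2 fold change 0.33 ± 0.11, edgeR adjusted p = 0.146). Mrps6 was at 7.89, 7.04 and 7.71 CPM in het and at 9.56, 9.80 and 10.8 CPM in KO (0.41 ± 0.15, edgeR adjusted p = 0.166). The groups did not overlap for either gene, yet neither passed the test over all genes. Mrpl14, whose protein binds the assembly factor MALSU1, had a log2 fold change of 0.30 ± 0.11 (edgeR adjusted p = 0.189), with 72.9 to 90.2 CPM in het and 93.4 to 110.3 in KO. Mrps30 had 0.33 ± 0.13 (edgeR adjusted p = 0.22), and its groups overlapped. Mrpl46 had the lowest log2 fold change of all members in this comparison, -0.92 ± 0.51 (edgeR adjusted p = 0.385; named after its values were seen). Its Padi6 het replicate 2 was at 126.8 CPM, while the other 11 replicates of the study were at 24.9 to 43.6.

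In oocytes without TLE6, Mrpl52 rose and no other member passed. The count was 1 of 76 (1.32%), against 1.62% of all 20276 genes tested (329), and 1 call cannot show whether the rates are equal. At an unadjusted p under 0.05 there were 7 of 76 members, a smaller share than the 19.0% of all genes. The median log2 fold change was 0.12 over the members and 0.06 over all genes, and 48 of 76 members were positive (63.2%, against 54.1% of all genes). With total counts in place of TMM the medians moved together, to 0.27 over the members and 0.22 over all genes. Groups did not overlap for 12 members that were higher in KO (15.8%, against 13.4% of all genes) and 6 that were lower (7.89%, against 15.8%).

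Mrpl52 (ENSMUSG00000010406, chromosome 14) was at 2.41 and 2.27 CPM in the 2 Tle6 het replicates. In the 4 Tle6 KO replicates it was at 14.4, 10.2, 6.35 and 9.21 CPM. The lowest KO replicate was above both het replicates, and the group means were 10.1 ± 3.34 CPM (SD, n = 4) and 2.34 ± 0.0959 (SD, n = 2). The log2 fold change was 2.14 ± 0.37 (edgeR, adjusted p = 0.0294). It was measured on 113 to 725 reads per biological replicate. Libraries A and B of het replicate 2 were at 3.99 and 1.00 CPM, those of het replicate 1 at 2.16 and 2.53, and those of KO replicate 4 at 9.38 and 8.59. All 4 het libraries were below the lowest KO value, and the 2 libraries of het replicate 2 were the ones furthest apart.

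The direction for Mrpl52 held in every alternative, but the call did not. With library A alone for het replicate 2, the log2 fold change was 1.66 and the adjusted p 0.126; with library B alone they were 2.58 and 0.0417. Over all alternatives the adjusted p ran from 2.92e-07 (DESeq2) to 0.152. Leaving out Tle6 het replicate 1 gave an adjusted p of 0.111, het replicate 2 0.152, KO replicate 2 0.0741 and KO replicate 4 0.0617, each with a log2 fold change from 2.06 to 2.18. Leaving out either het replicate leaves 1 het sample, which is then assumed to vary like the KO replicates. The genes on either side of Mrpl52 had few reads: Slc7a7 was at 0.71 to 1.71 CPM in the 12 replicates, and Mmp14 at 0 to 0.888.

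Theca and stroma cells, which lie outside the follicle's granulosa layer, were represented by 7 markers. In the Tle6 line 3 of the 7 were tested, and all 3 had lower values in Tle6 KO (median log2 fold change -1.89). All 3 had an unadjusted p under 0.05 (against 19.0% of all genes), with 0 called by edgeR and 2 by DESeq2 (against 8.54%). They were Pdgfra (-1.89, edgeR adjusted p = 0.0525), Col3a1 (-3.36) and Dcn (-1.45), and the groups did not overlap for any of them. The 7 markers summed to 4.47 to 5.42 CPM in Tle6 het and 0.958 to 1.97 in Tle6 KO, with Cyp17a1, the enzyme that defines theca cells, at 0 in both het replicates and in KO replicate 3. Their part in the Mrpl52 result was not tested.

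The next 4 members by p in the Tle6 line had positive values that did not pass. Mrps11, a small-subunit protein with a bacterial relative, was at 8.46 and 5.15 CPM in het and at 18.5, 9.84, 17.1 and 23.5 CPM in KO (log2 fold change 1.39 ± 0.38, edgeR adjusted p = 0.107). KO replicate 2 was close to the higher het replicate, and library B of het replicate 2 was at 1.74 CPM against 9.77 in library A. Its neighbour across the shared start region, Mrpl46, had 0.15 ± 0.26 (edgeR adjusted p = 0.79). Mrpl58, a peptidyl-tRNA hydrolase within the large subunit that rescues stalled ribosomes, was at 63.6 and 52.2 CPM in het and at 85.5, 142.3, 107.7 and 83.4 CPM in KO (0.90 ± 0.26, edgeR adjusted p = 0.117). Mrpl15 was at 17.8 and 24.0 CPM in het and at 30.1, 38.5, 43.1 and 29.0 CPM in KO (0.80 ± 0.25, edgeR adjusted p = 0.142). Mrpl43 was at 1.46 and 1.57 CPM in het and at 3.51, 2.43, 2.43 and 4.76 CPM in KO (1.16 ± 0.39, edgeR adjusted p = 0.163). The groups did not overlap for any of these 4 genes. DESeq2 called Mrps11, Mrpl58 and Mrpl43 besides Mrpl52, 4 of 76 members, where it called 8.54% of all genes. A spread shared by both lines called Mrps11, Mrpl58, Mrpl15 and Mrps7 besides Mrpl52.

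**Figure D3:**
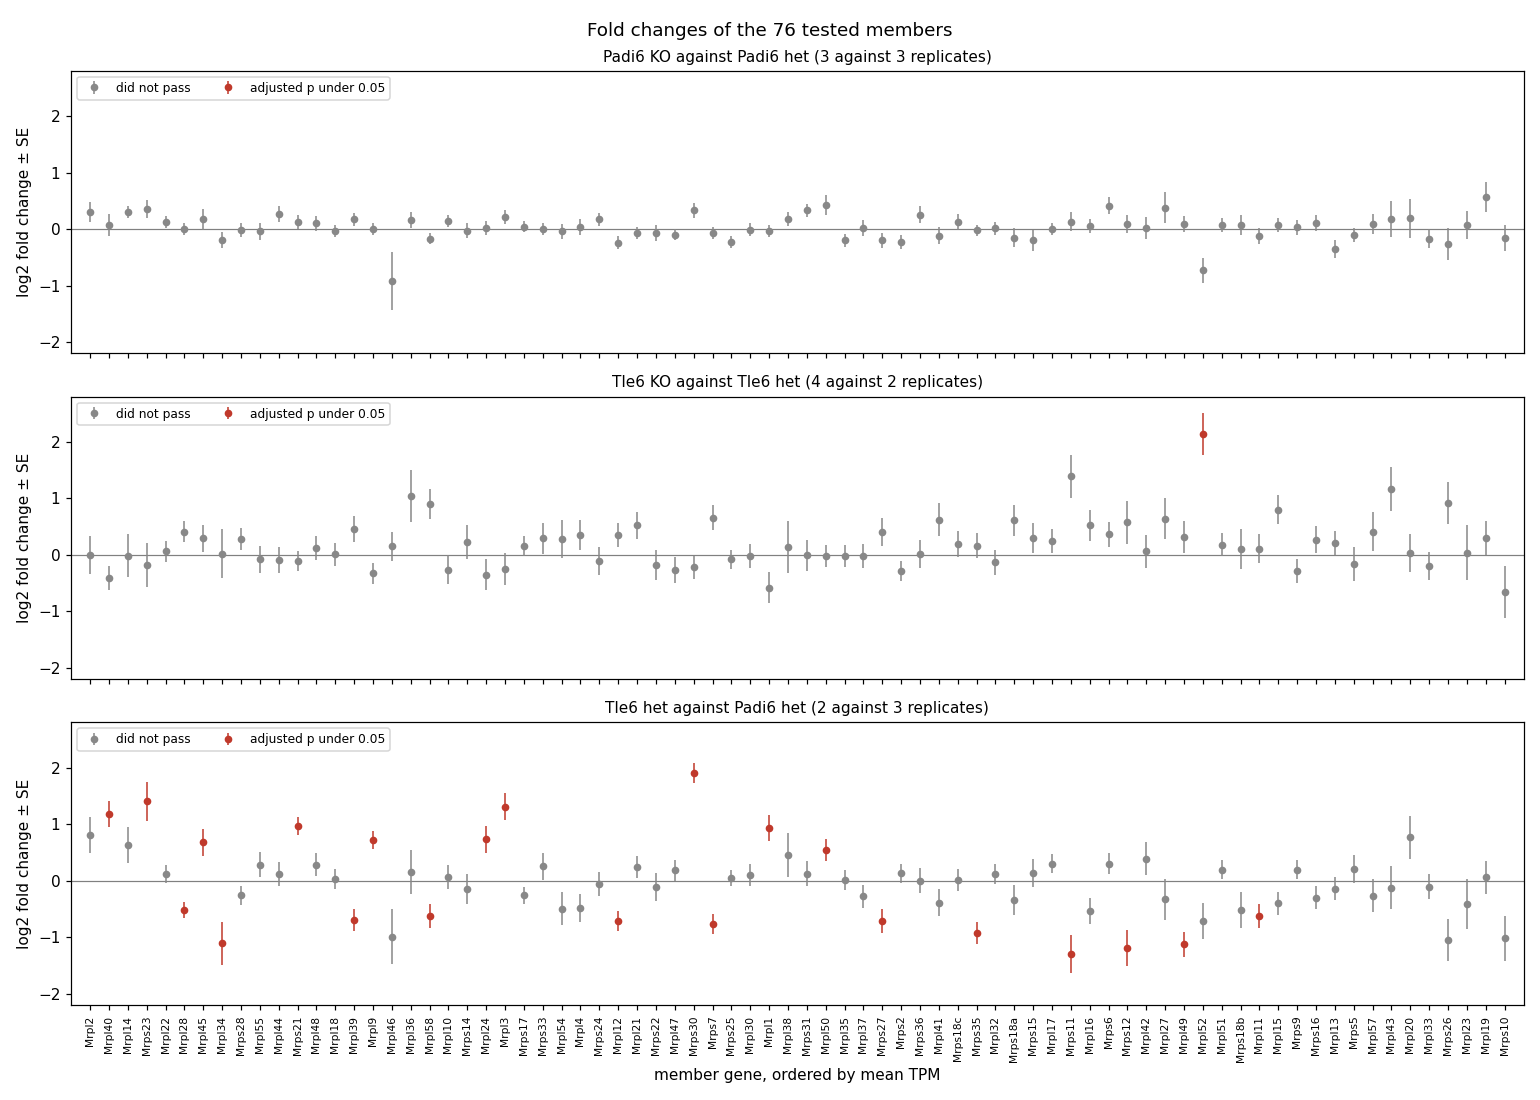
Log2 fold change ± SE of the 76 tested members, ordered by mean TPM, for Padi6 KO against het, Tle6 KO against het, and Tle6 het against Padi6 het; red points have an adjusted p under 0.05 by edgeR. No point is red in the upper panel, Mrpl52 alone is red in the middle panel at 2.14, and 22 points on both sides of 0 are red in the lower panel.

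The effect of the knockout on Mrpl52 differed between the 2 lines. Targeted gene, strain and library set cannot be told apart in this contrast. The difference between the lines (Tle6 KO effect minus Padi6 KO effect, an interaction contrast over all 12 replicates) was 2.83 ± 0.42 on the log2 scale (edgeR adjusted p = 0.00247). The contrast used 1 spread for both lines. Its coefficient of variation between replicates was 0.307, against 0.361 in the Tle6 line alone and 0.203 in the Padi6 line alone. No alternative gave each line its own spread here. It was 1 of 76 members called (1.32%), against 4.32% of all 21392 genes tested (924), and 9 members had an unadjusted p under 0.05, against 20.7% of all genes. The call held in every alternative run, including each replicate left out and each library of Tle6 het replicate 2 alone, where the difference was 2.40 with A and 3.26 with B; the adjusted p ran from 3.4e-09 to 0.0174. The median difference over the members was 0.04, against 0.02 over all genes, and 39 of 76 were positive (51.3%, against 51.1% of all genes).

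Mrpl58 had a difference of 1.02 ± 0.28 (edgeR adjusted p = 0.0551), Mrps7 0.69 ± 0.23 (0.107), Mrps11 1.21 ± 0.42 (0.12) and Mrpl15 0.68 ± 0.26 (0.161), so none of the 4 passed. Mrpl58 passed when Tle6 KO replicate 1, 2 or 4 was left out (adjusted p = 0.0311, 0.0479 and 0.0403), and Mrps11 when Tle6 KO replicate 2 was left out (0.0399).

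Markers of granulosa and cumulus cells, which surround the oocyte, had lower values in Padi6 KO and higher values in Tle6 KO, the same directions as Mrpl52. In the Padi6 line 7 of 8 tested markers were negative (median log2 fold change -1.16). There 4 had an unadjusted p under 0.05 (against 18.6% of all genes), with 0 called by edgeR and 3 by DESeq2 (against 7.25%). In the Tle6 line 8 of 9 were positive (median 0.75). There 3 had an unadjusted p under 0.05 (against 19.0% of all genes), with 0 called by edgeR and 1 by DESeq2 (against 8.54%). In the difference 8 of 9 were positive (median 1.61), and 1 was called: Inha, the inhibin α subunit, at 4.63 ± 1.05 (edgeR adjusted p = 0.0274). Inha was at 0.208 to 2.37 CPM in Padi6 het, 0.12 to 0.358 in Padi6 KO, 0.143 to 0.279 in Tle6 het and 0.537 to 0.874 in Tle6 KO. Its adjusted p was 0.0609 with library A alone for Tle6 het replicate 2, 0.032 with library B alone, and 0.00462 to 0.112 with 1 replicate left out.

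The 10 granulosa and cumulus markers together overlapped between all groups, with 93.0 to 116 CPM in Padi6 het, 89.7 to 104 in Padi6 KO, 93.1 to 121 in Tle6 het and 99.8 to 113 in Tle6 KO. Cyp19a1 and Nr5a2 made up 75 to 97.3% of that sum in each replicate. The other 8, a set taken after the values were seen, summed to 9.23 to 29.0 CPM in Padi6 het, 4.25 to 5.81 in Padi6 KO, 3.28 to 9.32 in Tle6 het and 5.14 to 15.6 in Tle6 KO. In that sum the Padi6 groups did not overlap and the Tle6 groups did. Much of it in the Padi6 line came from 1 gene, Cyp11a1, at 7.04, 4.87 and 22.5 CPM in Padi6 het and 3.10, 2.82 and 3.87 in Padi6 KO. It thus does not describe the 8 genes as a set. Amh was at 0 in both Tle6 het replicates and in Padi6 KO replicate 1, and Amhr2 in the latter. The part of these cells in the Mrpl52 result was not tested.

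**Figure D4:**
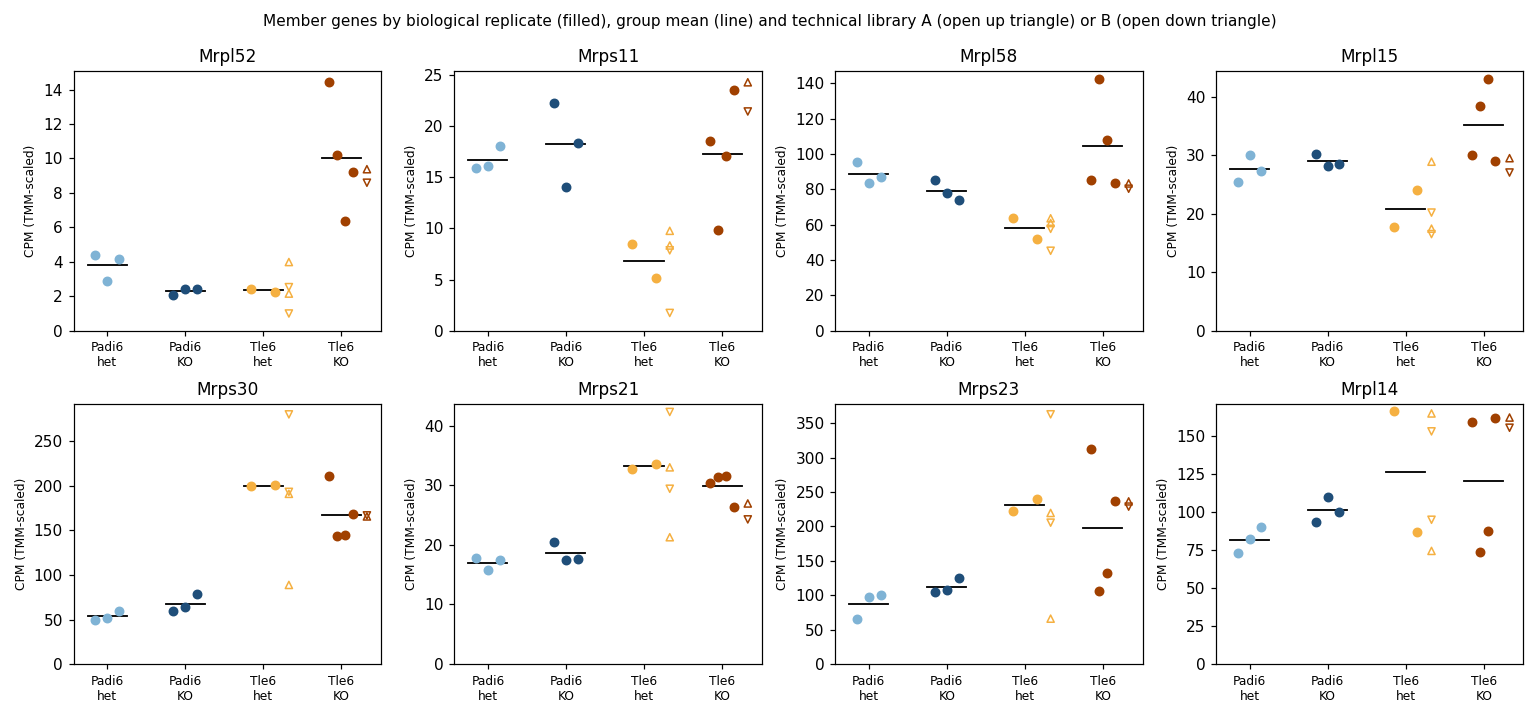
CPM (vertical, linear from 0) of 8 members by group, with filled dots for biological replicates, lines for group means, and open triangles for technical libraries A (up) and B (down). Mrpl52 in Tle6 KO (6.35 to 14.4 CPM) lies above all other replicates, and Mrps30 and Mrps21 are higher in both Tle6 groups than in both Padi6 groups.

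The het groups of the 2 lines differed in 22 of 76 members (28.9%), against 28.5% of all 21392 genes tested (6107), about the same share. Of these members 10 were higher and 12 lower in Tle6 het, where 15.9% of all genes were higher and 12.7% lower. Strain, targeted allele and library set cannot be told apart in this comparison. With total counts in place of TMM the split was 5 higher and 24 lower, where 30.6% of all genes were called in either direction. The median over all genes moved from -0.03 to -0.34. The split of all genes by direction under that scaling is not given here. By subunit, 15 of the 50 tested large-subunit members and 7 of the 25 small-subunit members were called. The members' median log2 difference was 0.01, and 39 of 76 were positive (51.3%, against 48.7% of all genes). Groups did not overlap for 15 members that were higher and 22 that were lower (19.7 and 28.9%, against 26.6 and 27.3% of all genes). Where het replicate 2 was represented by library A alone, 6 of the 76 members were called, a smaller share than the 17.5% of all genes. These 6, all among the 22, were Mrps30, Mrps21, Mrpl49, Mrps35, Mrpl9 and Mrpl1. With library B alone 24 members were called, against 32.7% of all genes.

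Mrps30 (ENSMUSG00000021731, chromosome 13) had the smallest p and the largest log2 fold change of the members here. It was at 49.1, 52.2 and 59.9 CPM in Padi6 het and at 199.8 and 200.8 CPM in Tle6 het, and the log2 difference was 1.90 ± 0.18 (edgeR adjusted p = 1e-05). The KO replicates lay on the same sides, at 59.9, 63.9 and 78.5 CPM for Padi6 and at 211.3, 144.3, 144.6 and 168.4 CPM for Tle6. Every Tle6 replicate was thus above every Padi6 replicate. Library A of Tle6 het replicate 2 was at 88.8 CPM and library B at 280.3, and the log2 difference was 1.42 with A alone (edgeR adjusted p = 0.00363) and 2.2 with B alone (1.34e-05).

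Mrps21, of the small subunit, was at 17.7, 15.8 and 17.4 CPM in Padi6 het and at 32.8 and 33.6 CPM in Tle6 het (0.97 ± 0.16, edgeR adjusted p = 0.000585). Both KO groups followed their line here too, with 17.5 to 20.5 CPM in Padi6 KO and 26.3 to 31.5 in Tle6 KO. In the other direction, Mrpl49, a mitochondria-specific large-subunit protein, was at 12.4, 12.6 and 11.6 CPM in Padi6 het and at 6.47 and 4.71 CPM in Tle6 het (-1.13 ± 0.22, edgeR adjusted p = 0.00228). Mrps35, a mitochondria-specific small-subunit protein, was at 104.1, 85.3 and 100.1 CPM against 40.8 and 60.3 CPM (-0.93 ± 0.19, edgeR adjusted p = 0.00256). For both genes the het groups stood well apart, and the Tle6 KO replicates also lay below every Padi6 replicate.

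Mrpl9 was higher in Tle6 het by 0.72 ± 0.16 (edgeR adjusted p = 0.00472) and Mrpl1, the protein of the L1 stalk, by 0.93 ± 0.23 (edgeR adjusted p = 0.00975). Both lost the call without Tle6 het replicate 2 (adjusted p = 0.0718 and 0.122) and with total counts (0.0689 and 0.0764). Mrpl3, Mrpl40, Mrps7 and Mrps23 were the remaining members among the 10 with the smallest p, and all 4 lost the call with library A alone for het replicate 2. Mrpl3, by the peptidyl transferase centre, went from 1.31 ± 0.24 (edgeR adjusted p = 0.0013) to 0.91 (0.0964). Mrpl40 went from 1.17 ± 0.23 (edgeR adjusted p = 0.00213) to 0.61 (0.288), and Mrps23 from 1.40 ± 0.35 (edgeR adjusted p = 0.00879) to 0.72 (0.313). Mrps7 went from -0.77 ± 0.18 (edgeR adjusted p = 0.00602) to -0.37 (0.327), and it also missed without Tle6 het replicate 1 (0.0612). Library A of that replicate was nearer to Padi6 het for all 4, with Mrps23 at 65.9 CPM in A, 362.8 in B and 65.1 to 99.6 in Padi6 het. With library B alone all 10 of these members passed, Mrpl3 at 1.57 (edgeR adjusted p = 0.000375), Mrpl40 at 1.51 (0.00079), Mrps23 at 1.79 (0.0034) and Mrps7 at -1.14 (0.000821).

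The spread between replicates was wider in the Tle6 line. The median SD of log2 CPM within groups was 0.157 over the members in the Padi6 line (0.183 over all genes) and 0.281 in the Tle6 line (0.269 over all genes). Mrpl14 and Mrpl2, among the 5 most abundant members, split the Tle6 line across genotype. Mrpl14 was at 166.5 and 86.8 CPM in Tle6 het and at 159.4, 73.9, 87.4 and 162.0 CPM in Tle6 KO. Het replicate 1 and KO replicates 1 and 4 were the high ones for this gene, and het replicate 2 and KO replicates 2 and 3 the low ones. Mrpl2 ran the same way, at 318.3 and 178.1 CPM in het and 299.8, 154.9, 189.6 and 315.0 CPM in KO. Mrps23 shared the split among the KO replicates only, at 312.3, 106.7, 132.5 and 236.7 CPM. Over the 76 members, deviations from the mean of the line correlated with r = 0.59 between KO replicates 1 and 4, 0.60 between KO replicates 2 and 3, and -0.73 between het replicate 1 and KO replicate 2. For het replicate 1, r was 0.13 and 0.05 with KO replicates 1 and 4, against -0.73 and -0.64 with KO replicates 2 and 3. For het replicate 2, r was -0.11 and -0.19 with KO replicates 2 and 3, against -0.45 and -0.69 with KO replicates 1 and 4. Each het replicate thus had a higher r with one side than with the other, and a lower one than the KO replicates of a side had with each other. The 2 het replicates had r = 0.21 with each other. These r are descriptions across genes of the same libraries. Deviations of a gene from the mean of its line sum to 0. This pushes r between replicates below 0, and a positive r in one pair lowers others, so the negative r are not separate evidence of a split. Het replicate 2 is also the sum of the 2 libraries that differed from each other. What set these replicates apart was not tested.

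The other proteins of the mitochondrial ribosome, which carry other names, are Dap3, Ptcd3, Chchd1, Aurkaip1 and Gadd45gip1. None of the 5 passed edgeR's test in either knockout or in the difference. At an unadjusted p under 0.05 there were 0, 1 and 1 (against 18.6, 19.0 and 20.7% of all genes). DESeq2 called 0, 1 and 1 (against 7.25, 8.54 and 9.59% of all genes). Between the het groups, Aurkaip1 was higher in the Tle6 line, at 40.1 and 32.0 CPM against 14.3 to 17.7 CPM (1.14 ± 0.18, edgeR adjusted p = 0.000451). Gadd45gip1, of the large subunit, was lower, at 4.76 and 5.10 CPM against 12.1, 10.7 and 11.3 CPM (-1.20 ± 0.30, edgeR adjusted p = 0.0101). Neither pair of het groups overlapped. With library A alone for Tle6 het replicate 2, Aurkaip1 kept the call (1.46, edgeR adjusted p = 0.000131) and Gadd45gip1 lost it (-0.75, 0.152); both passed with library B alone. The large ribosomal RNA of the mitochondrion, mt-Rnr2, was at 2328 and 1582 CPM in Tle6 het against 5707, 7658 and 7048 CPM in Padi6 het (-1.80 ± 0.33, edgeR adjusted p = 0.00139). It passed with either library alone, at -1.62 with A (edgeR adjusted p = 0.00391) and -1.93 with B (0.00177). The small one, mt-Rnr1, was at 119.0 and 253.5 CPM against 252.7 to 287.4 CPM and did not pass. Libraries were made from polyadenylated RNA, so these values are not total rRNA.

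Among genes that serve the mitochondrial ribosome, none of 25 tested assembly and rRNA modification factors, 15 translation factors, 20 genes of aminoacyl-tRNA synthesis, 18 transcription and RNA processing genes or the regulators of mitochondrial biogenesis (7 tested in the Padi6 line, 8 in the Tle6 line) passed in either knockout by edgeR. At an unadjusted p under 0.05 these lists had 5, 2, 4, 2 and 3 genes in the Padi6 line, against 18.6% of all genes. In the Tle6 line they had 6, 0, 2, 6 and 3, in the same order, against 19.0% of all genes. DESeq2 called 1, 0, 0, 1 and 1 of them in the Padi6 line (against 7.25% of all genes) and 1, 0, 1, 2 and 1 in the Tle6 line (against 8.54%). Of the mitochondrially encoded mRNAs, which this ribosome translates, 1 of 11 fell in Padi6 KO: mt-Nd1, a complex I subunit, from 225.9, 233.2 and 232.0 CPM to 175.5, 167.1 and 157.7 CPM (-0.47 ± 0.09, edgeR adjusted p = 0.0283). Every KO replicate was below every het replicate for mt-Nd1. Its adjusted p was 0.0486 to 0.132 with 1 replicate left out, with the call lost in 5 of 6 cases. It was 0.67 where the spread was estimated over both lines. Of the 11, 9 had negative values (median log2 fold change -0.43), and 6 had an unadjusted p under 0.05 (against 18.6% of all genes). For 6 the groups did not overlap, all lower in KO (against 11.5% of all genes), and DESeq2 called 5 (against 7.25%). Together the mitochondrially encoded mRNAs summed to 1070 to 1090 CPM in Padi6 het and 764 to 902 in Padi6 KO. None of 12 passed in the Tle6 line by edgeR, with 0 at an unadjusted p under 0.05 and 0 called by DESeq2. In the difference of the knockout effects between the lines, Hsd17b10 (1.72 ± 0.40, edgeR adjusted p = 0.0304), a subunit of mitochondrial RNase P, and Polrmt (1.33 ± 0.34, 0.0437), the mitochondrial RNA polymerase, passed. Neither passed with library A alone for Tle6 het replicate 2 (edgeR adjusted p = 0.0617 and 0.261); with library B alone Hsd17b10 passed (0.0304) and Polrmt did not (0.0682). With 1 replicate left out, Hsd17b10 lost the call in 7 of 12 cases and Polrmt in 10.

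Between the het groups, 8 of the 25 assembly factors passed (32.0%, against 28.5% of all genes), 3 higher and 5 lower in Tle6 het. They included the rRNA methyltransferases Mettl15 (1.30 ± 0.21, edgeR adjusted p = 0.000641) and Nsun4 (0.90 ± 0.20, 0.00415) and the GTPase Noa1 (0.87 ± 0.21, 0.00739). Of 15 translation factors, 6 passed (40.0%), 2 higher and 4 lower, among them the insertase Oxa1l (-1.28 ± 0.22, edgeR adjusted p = 0.000957), the initiation factor Mtif3 (-1.09 ± 0.27, 0.00868) and the elongation factor Tufm (-1.0 ± 0.27, 0.0136). The 3 of 20 genes of aminoacyl-tRNA synthesis that passed (15.0%) were all lower: Lars2 (-1.41 ± 0.30, edgeR adjusted p = 0.00358), Iars2 (-1.01 ± 0.26, 0.0111) and Vars2 (-1.03 ± 0.30, 0.0213).

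Of 18 transcription and RNA processing genes, 7 passed between the het groups (38.9%), 2 higher and 5 lower, led by the RNase Pnpt1 (2.15 ± 0.23, edgeR adjusted p = 2e-05), Ptcd2 (-0.88 ± 0.14, 0.000514) and Polrmt (-1.42 ± 0.27, 0.00173). Among the regulators of mitochondrial biogenesis, 3 of 8 passed (37.5%): Yy1 (-0.98 ± 0.28, edgeR adjusted p = 0.0182), Gabpb1 (0.58 ± 0.18, 0.0275) and Pprc1 (-0.59 ± 0.18, 0.0282). Over these lists, the mitoribosomal RNAs and the proteins named otherwise, 30 genes passed between the het groups, of which 17 also passed with library A alone for Tle6 het replicate 2 and 28 with library B alone. Of the genes named here and above, Gadd45gip1, Nsun4, Noa1, Lars2, Vars2, Gabpb1 and Pprc1 lost the call with library A. Cytosolic ribosomal protein genes, the nearest counterpart outside the mitochondrion, were called in 18 of 92 cases (19.6%) between the het groups by edgeR. In the Padi6 and Tle6 knockouts it called 0 of 88 and 0 of 91. There 4 and 10 had an unadjusted p under 0.05 (against 18.6 and 19.0% of all genes), and DESeq2 called 3 and 2 (against 7.25 and 8.54%).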

How the data were processed

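Per the labels' protocols, the QIAseq FX Single Cell RNA kit was used on polyadenylated RNA of 15 oocytes per library. The authors deposited raw counts of reads per gene; the submitters' processing notes name bcl2fastq 2.20.0.422, cutadapt 2.8, STAR 2.7.8a, HTSeq 2.0.2 and mm39. Bracketed sample names say WT where title and genotype say heterozygote; the genotype was used. Symbols came from GENCODE M21 (GRCm38), with 52147 identifiers matched and 1553 not. Reads in no gene were 5.39 to 7.29% and ambiguous reads 3.85 to 4.2% of a library, and both stayed out of library sizes.

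Technical libraries were summed. edgeR 4.0.16 (R 4.3.3; filterByExpr, TMM, robust glmQLFit, glmQLFTest, two-sided) was run within each line for the knockouts and over all groups for the difference and the het groups, adjusted over all genes tested, with a threshold of 0.05. The scripts were tested on simulated data. TPM used exon lengths of that annotation. Between replicates, edgeR's coefficient of variation came to 0.203 (Padi6 line) and 0.361 (Tle6 line). It was 0.307 over both lines, the spread used for the difference and the het groups. Members and lists were chosen with earlier results of these data known. Named were members past the threshold or with the 5 to 10 smallest p, the 5 highest and 3 lowest by TPM, the Mrps18 paralogs, untested members, and at most 3 called genes of each other list. Alternatives were other scalings, filters, DESeq2 1.42.0, a shared spread, a replicate block, single technical libraries and each replicate left out; those for the summed level and the other lists were chosen after seeing the data.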

Additional observations from a re-analysis of the deposited data

Results flagged for a closer look

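The effect of the knockout on Mrpl52 differed between the lines by the interaction test, at 2.83 ± 0.42 on the log2 scale (Tle6 line minus Padi6 line; edgeR adjusted p = 0.00247). The lines differ in targeted gene, strain and library set, which cannot be told apart here. All 3 Padi6 KO replicates were below all 3 Padi6 het replicates, and all 4 Tle6 KO replicates were above both Tle6 het replicates. Over the alternatives the adjusted p ran from 3.4e-09 (DESeq2) to 0.0174 (library A of each replicate only). The 4 Tle6 KO replicates were examined for a sample far from the others in each of 26 named members, and none held one by Dixon's test. The other groups were not examined in this way.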

How the results depend on the processing

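The 2 libraries of Tle6 het replicate 2, with 2 Tle6 het replicates in all, limit the Tle6 and het-group results. Mrpl53 and Mrps34, whose exons are largely shared with other genes, had too few counts to be tested. Of the values for single named genes under alternatives, 336 stayed on the same side of the threshold, 22 crossed to pass, 20 lost the call and 0 reversed; causes were not tested. Over all genes, DESeq2 called 7.25% in Padi6 KO, 8.54% in Tle6 KO and 9.59% in the difference. Total counts called 3.78% of all genes in the difference. Het replicate 2 from library A gave 0.605% in Tle6 KO and 17.5% between the het groups, and from library B 5.77% in the difference. Shares of all genes under the other settings are not given here. The member counts that follow thus describe the settings and are not results about the members. Members called in Padi6 KO were 2 with no filter on low counts (Mrpl46 and Mrps34) and 1 with DESeq2, and 0 whichever replicate was left out. In Tle6 KO they were 3 with no filter, 4 with DESeq2, 5 with a spread shared by both lines, 0 with library A only or with het replicate 2 from library A, and 0 to 1 with a replicate left out. In the difference they were 2 with total counts, 4 with no filter, 2 at a mean of at least 5 CPM, 4 with DESeq2, 3 with het replicate 2 from library B, and 1 to 3 with a replicate left out. Between the het groups they were 6 with library A only or with het replicate 2 from A, and 11 to 18 with a replicate left out: 14 without Padi6 het replicate 1 and 11 without Tle6 het replicate 2.

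The median log2 fold change of the members in Tle6 KO was 0.27 with total counts, 0 with library A only, 0.24 with het replicate 2 from library B and 0.01 from library A, and 0.06 to 0.20 with a replicate left out. In the difference it was 0.26 with total counts, 0.15 at a mean of at least 5 CPM, -0.05 with library A only, 0.17 and -0.04 with library B or A of het replicate 2, and 0.00 to 0.10 with a replicate left out. Between the het groups it was -0.30 with total counts, -0.06 at a mean of at least 5 CPM, 0.09 with library A only, -0.15 with library B, and -0.10 to 0.05 with a replicate left out. The summed level was 3550, 3610, 3530 and 3970 CPM with total counts in Padi6 het, Padi6 KO, Tle6 het and Tle6 KO, which turned the order of Tle6 het and Tle6 KO, and 4180 and 3940 CPM in Tle6 het with library B or A of replicate 2.

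With the replicate number as a block (replicate block), 0 members were called in Padi6 KO and 0 in Tle6 KO, where Mrpl52 had 2.41 with an adjusted p of 0.0717; in the difference 1 was called, Mrpl52 at 3.09. Deviations of same-numbered het and KO replicates correlated at 0.15, 0.05 and 0.09 in the Padi6 line and at 0.05 and 0.11 in the Tle6 line. Those of different numbers ran from -0.14 to 0.06 in the Padi6 line and from -0.16 to 0.16 in the Tle6 line. With so few replicates these r cannot show whether same-numbered samples were paired, and the labels do not say. The block could not be fitted between the het groups, whose numbers are not shared across lines.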
